A study of Mus musculus with 20 samples.

Results

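Differences between male and female livers were examined in mice that express human PPARα (hPPARa), a nuclear receptor activated by fatty acids that turns on genes for burning them. The members were taken by title: 5 male and 5 female hPPARa libraries of the 20 in the series, compared over autosomal genes with exposure as a covariate. They comprised 3 males and 2 females on PFOA (perfluorooctanoic acid, a persistent fluorinated surfactant) and 2 males and 3 females on vehicle. Mice on PFOA drank sucrose water with PFOA at 8 µM (the labels print the unit as µm), and mice on vehicle drank the 0.5% sucrose water alone, for 6 to 7 weeks from weaning, all on a custom diet modelled on American intake. The other 10 libraries came from PPARα knockout mice (KO) housed on the same waters and diet, with 3 males and 3 females on PFOA and 3 males and 1 female on vehicle. The series title calls the human receptor a transgene. The sources used here do not name the strain, the promoter of the transgene or the state of the mouse Ppara gene in the hPPARa mice. Neither do they say that libraries of a group are separate mice, so the spread behind each p-value may be technical in part.

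Rodent liver is strongly dimorphic, chiefly because the pituitary secretes growth hormone in pulses in males and more continuously in females. The hormone binds its receptor on hepatocytes and activates the kinase JAK2 and the transcription factor STAT5B, which works with the male-typical repressor BCL6 and the female-typical repressor CUX2. Gonadal steroids act on this pattern largely through the pituitary, and well known outputs are urinary pheromone carriers and steroid-metabolising cytochrome P450s.

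Each hPPARa library held 15036240 to 17815566 counts over 20049 to 24481 genes. The labels of sex were borne out in all 10. Ddx3y, a Y-linked gene, had 47.3 to 55.1 CPM in males and 0 to 0.415 CPM in females, where CPM are counts scaled to a common library size after TMM normalisation. Xist, the transcript of the inactive X, had 0.241 to 4.40 CPM in males and 455 to 873 CPM in females. Hepatocyte markers summed to 104400 to 172000 CPM in males and 133500 to 246500 CPM in females, and 0 of 14 tested members passed by edgeR (3 at an unadjusted p under 0.05, 2 by DESeq2, 1 without female vehicle replicate 1). Ppara itself had 21.2 to 39.6 CPM in hPPARa males and 16.9 to 28.9 CPM in hPPARa females, against 18.3 to 25.1 CPM in KO males and 8.42 to 22.2 CPM in KO females, and with the deleted bases unstated these counts do not check the genotype. Exocrine pancreas markers stayed at or under 1.24 CPM in sum, with Try4 and Amy2a5 at 0 in all 10 libraries.

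Male hPPARa livers had more transcript than female hPPARa livers of 14 of 21 urinary proteins and lipocalins and 7 of 13 male-typical P450s, and less of 7 of 25 female-typical P450s, 5 of 18 sulfotransferases and 9 of 13 macrophage genes. With edgeR's quasi-likelihood fit and Benjamini-Hochberg adjusted p-values, 471 of 13910 autosomal genes passed the threshold of 0.05 (3.39%). Of these 211 were higher in males (1.52%) and 260 were lower (1.87%), with 109 (0.784%) and 124 (0.891%) at least 2-fold apart. The median log2 fold change of all genes was 0.00. The total of 471 became 260 without male vehicle replicate 1, 296 without male PFOA replicate 2, 288 without female PFOA replicate 1, 237 without female PFOA replicate 2 and 138 when exposure was left out of the model.

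The major urinary proteins (MUPs), lipocalins that carry pheromones into urine, stood higher in males as a family. Of 25 listed MUPs and related lipocalins 21 were tested, 14 were higher in males and 0 lower, with a median log2 fold change of 2.13. MUP genes are near-identical and the authors' counting could split or lose their reads, so single values are uncertain, as they are for the Cyp2c, Cyp3a, Cyp4a, Cyp2b, Sult and Hsd3b families. Mup21 had 72.1, 193 and 114 CPM on PFOA and 586 and 678 CPM on vehicle in males. In females it had 3.71 and 2.90 CPM on PFOA and 5.73, 2.43 and 4.29 CPM on vehicle. Every male library lay above every female library, and Mup21 was 80.9-fold higher in males (log2 fold change 6.34 ± 0.54 SE, adjusted p = 0.000837). Mup20, which encodes the attractant pheromone darcin, had 98.6, 166 and 80.6 CPM on PFOA and 129 and 389 CPM on vehicle in males against 10.6 and 7.27 CPM on PFOA and 24.8, 7.73 and 10.9 CPM on vehicle in females. It was 15.4-fold higher (log2 fold change 3.94 ± 0.48, adjusted p = 0.00562), again without overlap, although the vehicle males stood far apart from each other. Mup3, another secreted member, had 2520.5, 3784 and 2251 CPM on PFOA and 7542 and 9519.6 CPM on vehicle in males and 691 and 558 CPM on PFOA and 2696, 1402 and 2027 CPM on vehicle in females. The sexes overlapped there because the 2 PFOA males with the lowest values lay under the vehicle female with the highest, while within each exposure all males were higher (log2 fold change 2.13 ± 0.20, adjusted p = 9.68e-05; 0.173 without the exposure term). Mup14, Mup1 and Mup4 had log2 fold changes of 3.86 ± 0.33, 2.62 ± 0.28 and 2.79 ± 0.41, with no overlap between the sexes. Lcn2, the acute-phase lipocalin and the member that lay furthest the other way, had a log2 fold change of −1.77 ± 0.54 (adjusted p = 0.131).

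The male-typical P450s followed. Of 13 tested, 7 were higher in males and 0 lower, with a median log2 fold change of 1.80. Cyp2d9, a testosterone hydroxylase long used as a mark of pulsatile growth hormone, had 2064, 2167 and 2391 CPM on PFOA and 1856 and 1628 CPM on vehicle in males. The females had 545 and 539 CPM on PFOA and 188, 166 and 81.2 CPM on vehicle. No female library reached the lowest male library, and the fitted difference was 7.01-fold (log2 fold change 2.81 ± 0.35, adjusted p = 0.00334). Cyp2u1, a fatty acid hydroxylase, had 56.4, 40.6 and 21.1 CPM on PFOA and 81.9 and 83.0 CPM on vehicle in males and 8.71 and 8.69 CPM on PFOA and 13.1, 12.9 and 14.8 CPM on vehicle in females (log2 fold change 2.41 ± 0.23, adjusted p = 0.000486). Male PFOA replicate 3 was the lowest male and still exceeded all 5 females. Cyp2f2, which oxidises naphthalene, had 749 to 1506 CPM in males and 354 to 689 CPM in females (log2 fold change 1.19 ± 0.22, adjusted p = 0.0143). Cyp4a12b, a fatty acid ω-hydroxylase, had 279, 331 and 243 CPM on PFOA and 14.1 and 11.1 CPM on vehicle in males and 55.5 and 20.3 CPM on PFOA and 0.244, 0.0608 and 1.73 CPM on vehicle in females. Within each exposure the males were higher (log2 fold change 3.32 ± 0.51, adjusted p = 0.014), but PFOA females lay above vehicle males, and the call was lost without the exposure term (adjusted p = 0.41) or without female PFOA replicate 2. Cyp7b1, an oxysterol hydroxylase, was above the females in all 5 males and did not pass (log2 fold change 1.997 ± 0.46, adjusted p = 0.0602). The list's count of 7 became 4 without male vehicle replicate 1, male vehicle replicate 2, male PFOA replicate 2 or female PFOA replicate 2.

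Steroid enzymes and other male-typical genes gave smaller groups. Of 19 tested steroid dehydrogenases and reductases 4 were higher in males and 2 lower, and the count of 6 became 1 to 3 when any single library other than male PFOA replicate 1 was left out. Hsd3b2, which oxidises and isomerises steroids, had 30.4 to 92.6 CPM in males and 19.1 to 40.0 CPM in females, which overlapped (log2 fold change 1.02 ± 0.14, adjusted p = 0.00112; 0.255 without the exposure term). Hsd3b5, a male-specific ketosteroid reductase, had 10.6, 137 and 30.3 CPM on PFOA and 269 and 249 CPM on vehicle in males and 0.731 and 0.568 CPM on PFOA and 23.3, 7.06 and 17.9 CPM on vehicle in females. Its PFOA males spread widely and overlapped the vehicle females, and its log2 fold change of 4.76 ± 0.91 (adjusted p = 0.0376) was lost in 10 of 17 alternatives. Among the other male-typical genes 10 of 31 tested were higher and 2 lower. Nat8, an N-acetyltransferase of cysteine conjugates, had 0.969, 5.64 and 2.65 CPM on PFOA and 6.04 and 3.09 CPM on vehicle in males and 0.281 and 0.454 CPM on PFOA and 0.366, 0.243 and 0.415 CPM on vehicle in females (log2 fold change 3.42 ± 0.48, adjusted p = 0.00268). Nox4, an NADPH oxidase, had 59.6 to 111 CPM in males and 24.3 to 38.002 CPM in females (log2 fold change 1.31 ± 0.16, adjusted p = 0.000888). Neither gene overlapped between the sexes. Outside the lists, Clec2h, a C-type lectin gene, had 1.82 to 4.16 CPM in males and 0 to 0.305 CPM in females (log2 fold change 4.51 ± 0.52, adjusted p = 0.000384). Hcrtr2, an orexin receptor, and Grm8, a glutamate receptor, were low in CPM and higher in males by 3.65 ± 0.42 and 2.87 ± 0.42 on the log2 scale.

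Complement genes moved both ways. Of 27 tested, 5 were higher in males and 3 lower. C6, a component of the terminal membrane attack complex, had 94.3, 252 and 147 CPM on PFOA and 212 and 283 CPM on vehicle in males and 49.4 and 38.7 CPM on PFOA and 14.5, 15.2 and 14.03 CPM on vehicle in females. All males exceeded all females (log2 fold change 2.98 ± 0.50, adjusted p = 0.0206), but the call was lost without male vehicle replicate 1, male PFOA replicate 2, female vehicle replicate 2 or female PFOA replicate 2. C8a, of the same complex, had 481 to 875 CPM in males and 207 to 403 CPM in females (log2 fold change 1.22 ± 0.23, adjusted p = 0.018), a call lost without male vehicle replicate 1. Susd4, a complement inhibitor, was higher in males by 1.87 ± 0.25 (adjusted p = 0.00369; 0.0823 without the exposure term). The 3 that were lower in males were the C1q chains, which macrophages make.

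**Figure D1:**
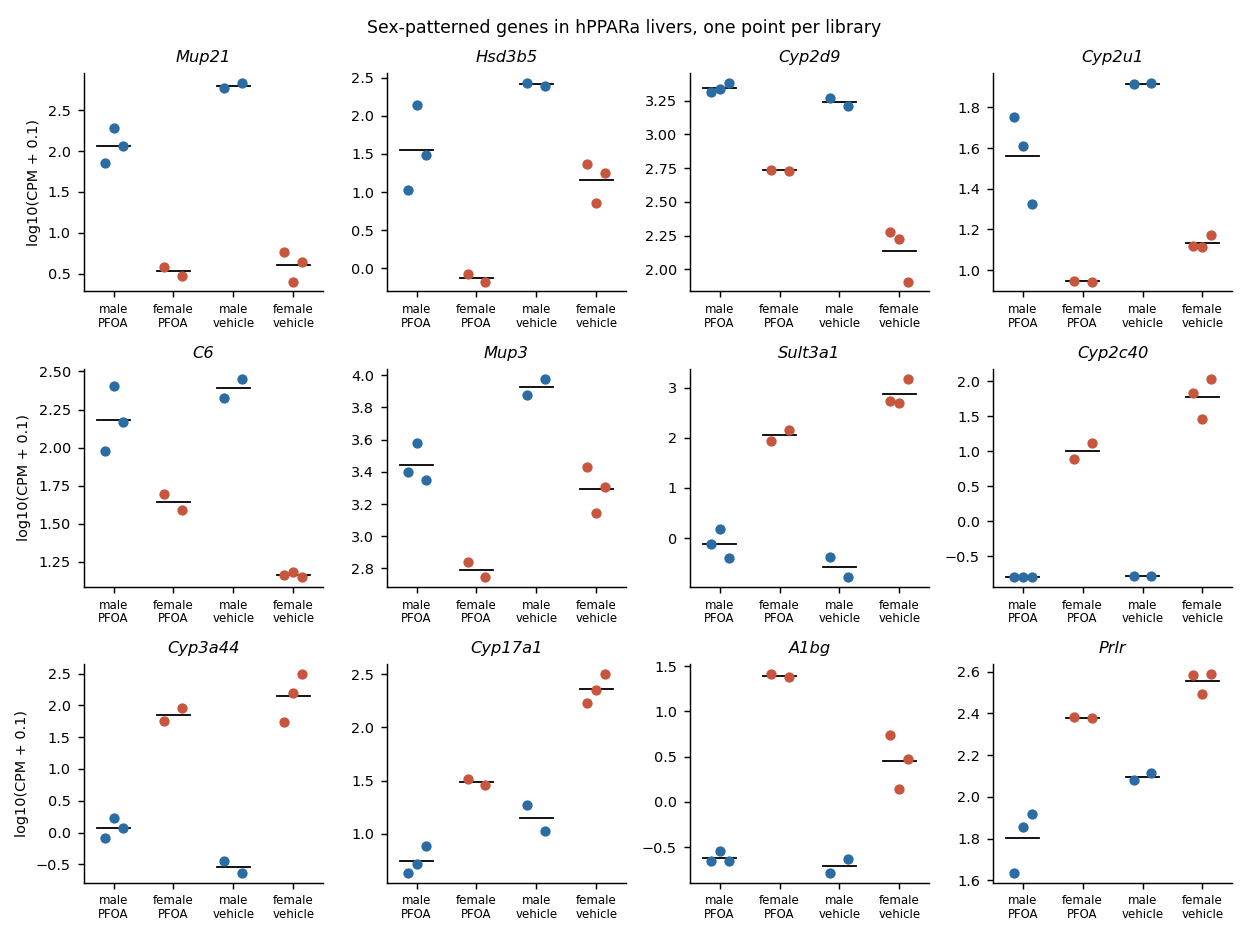
Levels of 12 genes in the 10 hPPARa libraries as log10 of CPM plus 0.1, 1 point per library and a bar at the mean, in males and females on PFOA and then on vehicle. Mup21, Cyp2d9 and Cyp2u1 stand higher in males and Sult3a1, Cyp2c40 and Prlr lower at both exposures, while Mup3 and Hsd3b5 of PFOA males reach the range of vehicle females.

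Several genes lower in males were nearly silent there. Of 18 tested sulfotransferases and sulfate donors 5 were lower in males and 1 higher. Sult3a1, a female-specific sulfotransferase, had 0.666, 1.42 and 0.301 CPM on PFOA and 0.325 and 0.0671 CPM on vehicle in males. In females it had 87.7 and 141 CPM on PFOA and 551, 487 and 1506 CPM on vehicle. The lowest female library stood far above the highest male library (log2 fold change −9.07 ± 0.998, adjusted p = 0.00401). Its close relative Sult3a2 had 2 counts over the 5 males and 5936 over the 5 females, a ratio of females over males of 2855 (exact 95% interval for counts 789.9 to 23580, which covers counting error only; adjusted p = 0.00817). That ratio pools the exposures without adjustment. On PFOA the counts were 2 and 250, a ratio of 173.9, and on vehicle 0 and 5686, at least 1214-fold. Sult2a1, which sulfates steroids and bile acids, had 0 counts in males and 3226 in females, at least 1034-fold lower in males against a floor of 3 counts over the group, and did not pass (adjusted p = 0.31), its female libraries running from 0.112 to 184 CPM. Of the female Sult2a1 counts 28 lay in the PFOA libraries and 3198 in the vehicle libraries, with bounds of 12.99-fold and 682.7-fold. Sult2a8 was the member higher in males, with 339.7 to 1019 CPM in males and 219 to 368 CPM in females, which overlapped (log2 fold change 1.30 ± 0.27, adjusted p = 0.0315). The sulfotransferase count of 6 became 2 without male vehicle replicate 1 or 2 and 3 without male PFOA replicate 2 or female PFOA replicate 2.

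Female-typical P450s were lower in males in 7 of 25 cases and higher in 0, and 23 of the 25 had a negative log2 fold change, with a median of −1.65. Cyp2c40, which oxidises arachidonic acid, had 0.0606, 0.0619 and 0.0602 CPM on PFOA and 0.0650 and 0.0671 CPM on vehicle in males, 1 count in each library. The females had 7.76 and 12.9 CPM on PFOA and 67.6, 28.8 and 108 CPM on vehicle. Every female library stood far above the males (log2 fold change −8.80 ± 0.71, adjusted p = 0.000486). Cyp3a44, a female-specific P450 of the drug-metabolising Cyp3a family, had 0.727, 1.61 and 1.08 CPM on PFOA and 0.260 and 0.134 CPM on vehicle in males and 56.8 and 90.9 CPM on PFOA and 53.9, 159 and 309.7 CPM on vehicle in females (log2 fold change −7.15 ± 0.83, adjusted p = 0.00496). Cyp3a41a, of the same family, had 2 counts over the males and 363 over the females, a ratio of 174.6 with the exposures pooled (exact 95% interval 47.98 to 1447; adjusted p = 0.000584). For Cyp3a41a on PFOA the counts were 2 and 49, a ratio of 34.09, and on vehicle 0 and 314, at least 67.03-fold. Cyp17a1, the hydroxylase and lyase of androgen synthesis, had 4.24, 5.14 and 7.59 CPM on PFOA and 18.8 and 10.5 CPM on vehicle in males and 32.5 and 28.7 CPM on PFOA and 171, 223 and 315 CPM on vehicle in females. The sexes did not overlap at either exposure or between them (log2 fold change −3.26 ± 0.40, adjusted p = 0.00456; 0.0539 without the exposure term). Cyp39a1, an oxysterol hydroxylase of bile acid synthesis, was lower in males (log2 fold change −2.21 ± 0.28, adjusted p = 0.00305), as was Cyp2c68 (−1.08 ± 0.15, adjusted p = 0.00143). Both were lost without the exposure term (adjusted p = 0.109 and 0.0688).

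Among the other female-typical genes 7 of 31 tested were lower in males and 2 higher. A1bg, a plasma glycoprotein of the immunoglobulin superfamily, had 0.121, 0.186 and 0.120 CPM on PFOA and 0.0650 and 0.134 CPM on vehicle in males. In females it had 25.7 and 23.9 CPM on PFOA and 5.36, 1.28 and 2.90 CPM on vehicle. The females on PFOA stood above the females on vehicle, and all 5 above the males (log2 fold change −6.86 ± 0.50, adjusted p = 4.42e-05). Atp6v0d2, a proton pump subunit, had 1.92 to 5.72 CPM in males and 13.9 to 27.9 CPM in females (log2 fold change −2.41 ± 0.28, adjusted p = 0.00109). Ccnd1, the cell cycle regulator cyclin D1, had 3.35 to 21.3 CPM in males and 25.2 to 54.6 CPM in females (log2 fold change −2.19 ± 0.24, adjusted p = 0.000739; 0.104 without the exposure term). Outside the lists, Aldh3b3, an aldehyde dehydrogenase, had 0 to 0.201 CPM in males and 0.899 to 13.3 CPM in females (log2 fold change −5.82 ± 0.52, adjusted p = 6.15e-05). Eci3, a peroxisomal enoyl-CoA isomerase, had 0 to 0.181 CPM in males and 1.03 to 2.81 CPM in females (log2 fold change −5.34 ± 0.55, adjusted p = 0.000156). Rsph4a, a radial spoke protein of motile cilia, had 0 to 0.301 CPM in males and 1.74 to 4.49 CPM in females (log2 fold change −4.34 ± 0.52, adjusted p = 0.000592). No library of these genes crossed over to the other sex.

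**Figure D2:**
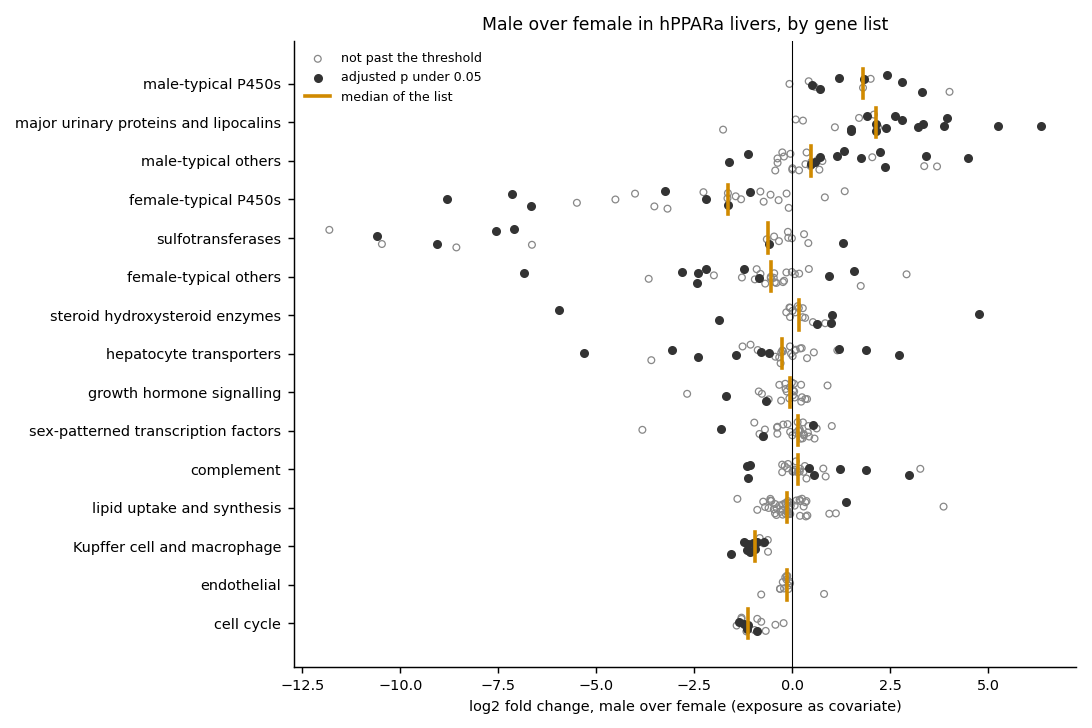
Log2 fold change of males over females, exposure as covariate, for tested autosomal members of 15 gene lists, filled where the adjusted p was under 0.05, with a bar at each list's median. Male-typical P450s and urinary proteins lie to the right (medians 1.80 and 2.13) and female-typical P450s and macrophage genes to the left (−1.65 and −0.96), and fitted values of genes with 3 or fewer counts in a sex depend on the prior count.

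Transporters of organic anions held strongly dimorphic members. Of 29 tested hepatocyte transporters 6 were lower in males and 3 higher. Slc22a26, an organic anion transporter, had 1.94, 1.24 and 3.79 CPM on PFOA and 1.43 and 0.402 CPM on vehicle in males. The females had 42.8 and 61.7 CPM on PFOA and 104, 75.3 and 109 CPM on vehicle. Its lowest female library stood far above the highest male library (log2 fold change −5.33 ± 0.50, adjusted p = 0.00132). Slco1a4, a sinusoidal carrier of bile acids and steroid conjugates, had 61.2 to 119 CPM in males and 181 to 299.9 CPM in females (log2 fold change −1.43 ± 0.17, adjusted p = 0.000648). Aqp4, a water channel, had 18.4 to 61.8 CPM in males and 4.93 to 14.2 CPM in females (log2 fold change 1.87 ± 0.25, adjusted p = 0.00391), and Slc22a28 was higher in males by 2.73 ± 0.49 (adjusted p = 0.0159). Slco1a1, the male-typical organic anion carrier, had a log2 fold change of 1.147 ± 0.34 (adjusted p = 0.121). The count of 9 became 5 without female PFOA replicate 1.

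Promoters of 4 dimorphic genes are shown. Among the genes with the highest and lowest fold changes and Prlr, these hold the letters TTCNNNGAA, the palindrome bound by STAT factors including STAT5. All 4 were lower in males, which was not a condition of the choice. The sequences are RefSeq promoter windows, 250 bases before to 50 bases after the annotated start, on GRCm38.p6, read 5′ to 3′ on the gene's strand with the match in capitals.
Sult3a1 (chr10:33857472-33857771, plus strand; the match starts 109 bases before the start): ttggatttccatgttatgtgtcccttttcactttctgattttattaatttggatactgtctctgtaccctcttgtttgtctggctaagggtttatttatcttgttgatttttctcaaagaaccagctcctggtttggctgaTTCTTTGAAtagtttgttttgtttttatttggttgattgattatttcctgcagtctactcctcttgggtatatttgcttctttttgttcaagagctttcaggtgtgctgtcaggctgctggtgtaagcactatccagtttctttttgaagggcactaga
Prlr (chr15:10223656-10223955, plus strand; 110 bases before): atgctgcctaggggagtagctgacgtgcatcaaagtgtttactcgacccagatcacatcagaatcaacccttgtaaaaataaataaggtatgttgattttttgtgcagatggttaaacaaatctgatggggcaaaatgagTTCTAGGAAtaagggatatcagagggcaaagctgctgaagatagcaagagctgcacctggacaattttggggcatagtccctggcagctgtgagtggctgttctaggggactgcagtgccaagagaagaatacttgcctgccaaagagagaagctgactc
A1bg (chr15:60921221-60921520, minus strand; 84 bases before): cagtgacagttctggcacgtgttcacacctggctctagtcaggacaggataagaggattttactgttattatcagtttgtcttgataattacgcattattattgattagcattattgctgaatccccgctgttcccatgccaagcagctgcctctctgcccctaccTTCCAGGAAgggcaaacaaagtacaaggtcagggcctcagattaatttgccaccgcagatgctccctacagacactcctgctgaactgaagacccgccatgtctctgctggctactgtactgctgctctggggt
Slc22a26 (chr19:7802618-7802917, minus strand; 141 bases before): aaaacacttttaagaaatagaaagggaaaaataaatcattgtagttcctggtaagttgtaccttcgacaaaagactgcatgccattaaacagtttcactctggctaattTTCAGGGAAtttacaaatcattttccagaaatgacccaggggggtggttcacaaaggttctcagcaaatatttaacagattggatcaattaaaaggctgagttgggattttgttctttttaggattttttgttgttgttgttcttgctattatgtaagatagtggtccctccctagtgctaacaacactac
The motif is its own reverse complement, so a search of 1 strand covers both, and no other motif was searched. It was present in 887 of the 10446 tested autosomal genes with a promoter window (8.49%), and in 2582 of all 27025 genes with a window (9.55%). A gene was counted once if any window of it held the motif. Among genes higher in males 16 of 153 with a window held it (10.5%), and among genes lower in males 21 of 186 (11.3%). Of those at least 2-fold apart, 9 of 73 higher (12.3%) and 14 of 87 lower (16.1%) held it. These shares are descriptions of letters in a window and were not tested.

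In the growth hormone pathway itself 2 of 25 tested members were lower in males and 0 higher. Over all autosomal genes tested 1.87% were lower and 1.52% higher. Prlr, the prolactin receptor, which also signals through JAK2 and STAT5 and whose promoter is shown above, had 43.2, 71.7 and 82.4 CPM on PFOA and 121 and 129.7 CPM on vehicle in males. In females it had 241 and 238 CPM on PFOA and 386, 311 and 388 CPM on vehicle. The sexes were apart at each exposure and in all 10 libraries (log2 fold change −1.69 ± 0.16, adjusted p = 7.49e-05). Igfbp3, a carrier of insulin-like growth factor, had 44.0 to 56.0 CPM in males and 62.8 to 92.0 CPM in females (log2 fold change −0.66 ± 0.11, adjusted p = 0.00606). The growth hormone receptor gene Ghr had 466 to 912 CPM in males and 452 to 732 CPM in females, with a log2 fold change of 0.33 ± 0.12 (adjusted p = 0.162). The log2 fold changes were −0.14 ± 0.11 for Stat5b, −0.01 ± 0.16 for Igf1, the main growth hormone-induced hormone of liver, and −0.78 ± 0.31 and 0.22 ± 0.51 for the feedback inhibitors Socs2 and Cish, with adjusted p of 0.56, 0.985, 0.235 and 0.89. These genes overlapped between the sexes, and the spread does not show that they were equal.

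Among 31 tested transcription factors with known sex patterns 1 was higher in males and 2 lower, a count that moved to 1 without male vehicle replicate 1 or 2, male PFOA replicate 2, female vehicle replicate 2 or female PFOA replicate 2. Cux2, the female-typical repressor, had 0.788, 1.36 and 1.45 CPM on PFOA and 3.12 and 1.27 CPM on vehicle in males. The females had 2.30 and 4.15 CPM on PFOA and 97.9, 114 and 52.8 CPM on vehicle. The 3 vehicle females stood far above the other 7 libraries. With both exposures the log2 fold change was −3.83 ± 0.87 (adjusted p = 0.062), and on vehicle alone it was −5.32 ± 0.52 (adjusted p = 0.00172). On vehicle 6 of the 31 were lower and 0 higher. That count of 6 became 2 without male vehicle replicate 1, 1 without male vehicle replicate 2 and 3 without female vehicle replicate 2. On PFOA 1 of the 31 was higher (Zbtb20) and 0 lower. The sex by exposure term called 0 of the 31, so the vehicle calls do not show a difference between exposures. Bcl6, the male-typical repressor, had 9.17 to 40.2 CPM in males and 7.56 to 16.9 CPM in females (log2 fold change 0.57 ± 0.38, adjusted p = 0.526). Tox, a female-typical chromatin factor, was lower in males on vehicle (−1.84 ± 0.37, adjusted p = 0.0277) and had a log2 fold change of −0.97 ± 0.39 over both exposures (adjusted p = 0.235). Esr1, the oestrogen receptor, had 1.70, 4.03 and 4.999 CPM on PFOA and 10.5 and 9.26 CPM on vehicle in males and 12.1 and 8.46 CPM on PFOA and 52.0, 33.9 and 39.5 CPM on vehicle in females (log2 fold change −1.82 ± 0.26, adjusted p = 0.00397; 0.135 without the exposure term).

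Lipid, bile acid and iron genes are given next. Of 33 tested PPARα-inducible oxidation genes 1 was higher in males and 0 lower, and of 46 genes of lipid uptake and synthesis 1 was higher and 0 lower, shares near that over all genes. Of 19 bile acid genes 1 was higher (Scp2) and 1 lower (Cyp39a1). The oxidation gene was Nudt7, a peroxisomal coenzyme A hydrolase, with 173 to 638 CPM in males and 91.9 to 201 CPM in females (log2 fold change 1.75 ± 0.26, adjusted p = 0.00637; 0.0504 without the exposure term). The lipid gene was Mogat1, a monoacylglycerol acyltransferase. It had 29.5, 22.5 and 23.2 CPM on PFOA and 0.0650 and 0.0671 CPM on vehicle in males and 11.6 and 7.44 CPM on PFOA and 0.0609, 0.0608 and 0.0691 CPM on vehicle in females, 1 count in each vehicle library, so the difference lay in the PFOA libraries (on PFOA 1.41 ± 0.20, adjusted p = 0.00383), and with equal weight for the exposures it was lost. In the lipid list the count of 1 became 5 without male PFOA replicate 1, 4 without male vehicle replicate 2 or female vehicle replicate 3 and 2 without male PFOA replicate 2. Scp2, a sterol carrier and peroxisomal thiolase of bile acid synthesis, had 1468, 1917 and 1563 CPM on PFOA and 1401 and 1689.5 CPM on vehicle in males and 945 and 885 CPM on PFOA and 689, 617 and 863 CPM on vehicle in females. No female reached the lowest male (log2 fold change 0.98 ± 0.13, adjusted p = 0.000739). Hamp2, a relative of the iron hormone hepcidin, had 42.7, 39.4 and 67.7 CPM on PFOA and 170.1 and 198 CPM on vehicle in males and 278 and 315 CPM on PFOA and 489.6, 521 and 554 CPM on vehicle in females. It was lower in males at both exposures (log2 fold change −2.03 ± 0.22, adjusted p = 0.000592; 0.0872 without the exposure term). Of 35 glucuronosyl and glutathione transferases 3 were higher and 1 lower, led by Ugt2b5 (0.68 ± 0.11, adjusted p = 0.00496).

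Markers of liver macrophages were lower in males together. Of 14 Kupffer cell and macrophage genes 13 are autosomal (the other, Vsig4, is X-linked) and were tested, 9 were lower in males and 0 higher, and all 13 had a negative log2 fold change, with a median of −0.96. The summed level of the 14 was 169.4 to 286.3 CPM in males and 355.8 to 555.1 CPM in females, without overlap. Clec4f, a lectin particular to Kupffer cells, had 32.1, 49.2 and 43.8 CPM on PFOA and 46.7 and 58.8 CPM on vehicle in males. In females it had 70.2 and 86.7 CPM on PFOA and 114, 112 and 94.8 CPM on vehicle. All males were lower (log2 fold change −0.96 ± 0.13, adjusted p = 0.000877). C1qa had 18.1, 21.5 and 19.3 CPM on PFOA and 23.1 and 31.7 CPM on vehicle in males and 37.4 and 44.4 CPM on PFOA and 56.5, 68.6 and 51.4 CPM on vehicle in females (log2 fold change −1.08 ± 0.12, adjusted p = 0.000239). C1qb and C1qc were lower in males without overlap (log2 fold changes −1.12 ± 0.12 and −1.147 ± 0.14). Adgre1, which encodes the macrophage antigen F4/80, had 2.73 to 5.66 CPM in males and 6.76 to 13.4 CPM in females (log2 fold change −1.24 ± 0.21, adjusted p = 0.00637). Timd4, Lyz2, Cd163 and Folr2 did not pass, with log2 fold changes from −0.83 to −0.62. In bulk tissue fewer macrophages and less of these transcripts per macrophage cannot be told apart.

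Markers of other cell types gave few calls. Of 14 tested endothelial genes 0 passed by edgeR (1 higher and 4 lower at an unadjusted p under 0.05, 1 higher and 1 lower by DESeq2), with a summed level of 457.5 to 590.8 CPM in males and 523.0 to 602.4 CPM in females, and stellate and fibroblast markers gave 0 higher and 1 lower of 14 (Ecm1). The endothelial count became 1 without male PFOA replicate 1 and 2 without male vehicle replicate 2, and the stellate call was lost without male vehicle replicate 1 or 2, male PFOA replicate 2, female vehicle replicate 2 or female PFOA replicate 2, while the stellate count became 2 without female vehicle replicate 1, female PFOA replicate 1 or male PFOA replicate 3. Erythroid markers summed to 259.6 to 330.2 CPM in males and 87.41 to 261.2 CPM in females, and 0 of 4 autosomal members tested passed by edgeR (0 at an unadjusted p under 0.05, 0 by DESeq2). The gap in the sum lay in Alas2, an X-linked enzyme of haem synthesis, with 146 to 224 CPM in males and 18.9 to 133 CPM in females, while the 4 globin genes overlapped between the sexes and had a median log2 fold change of −0.12. The part of blood or macrophage content in the differences above was not tested. Of 15 cell cycle genes 5 were lower in males and 0 higher, with a median log2 fold change of −1.14. Their summed level was 12.54 to 45.75 CPM in males and 22.19 to 101.5 CPM in females, with overlap, and Top2a, a topoisomerase of dividing cells, had 4.42, 4.46 and 3.67 CPM on PFOA and 0.780 and 1.21 CPM on vehicle in males and 7.08 and 11.9 CPM on PFOA and 2.25, 2.49 and 1.87 CPM on vehicle in females (log2 fold change −1.16 ± 0.20, adjusted p = 0.00554). The count of 5 became 1 without male vehicle replicate 1, male PFOA replicate 2, male PFOA replicate 3 or female PFOA replicate 2 and 2 without female vehicle replicate 2, and Top2a itself was lost without the exposure term.

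**Figure D3:**
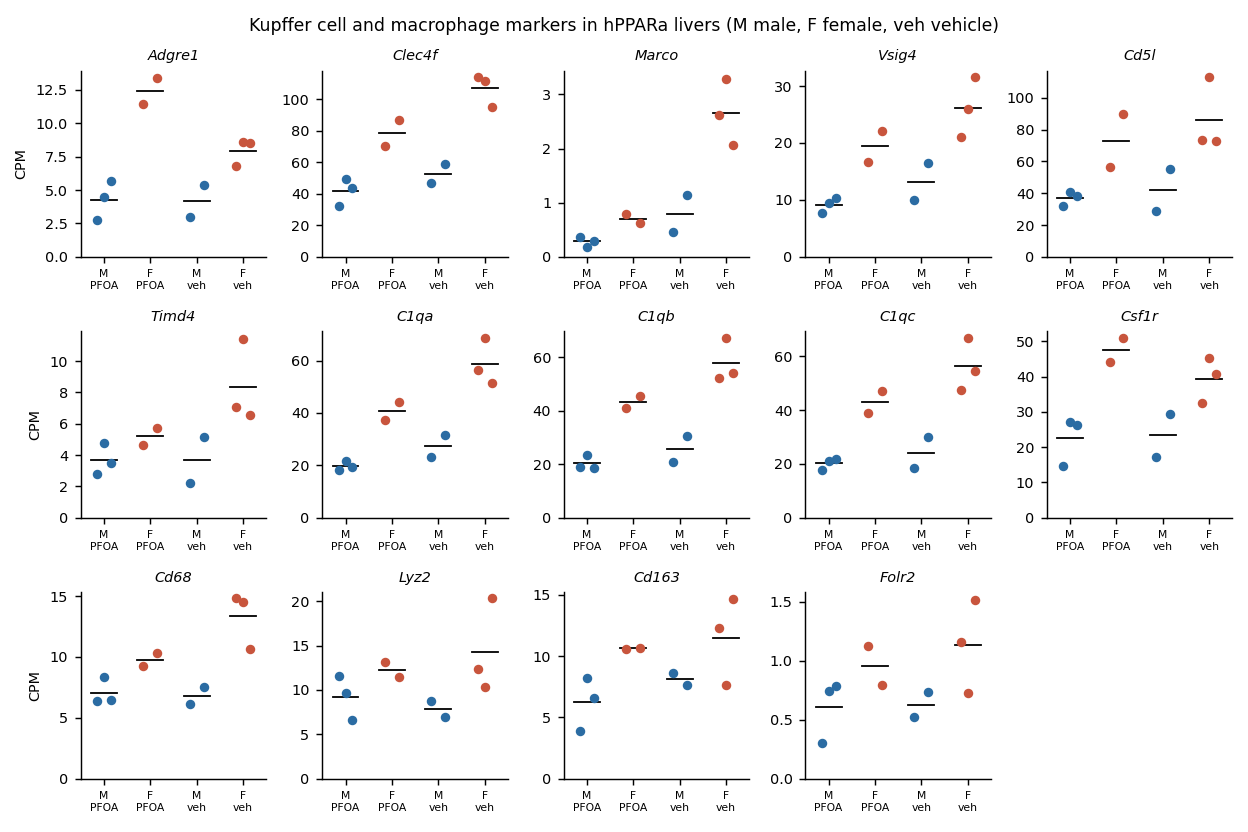
CPM of the 14 Kupffer cell and macrophage markers in the 10 hPPARa libraries, 1 point per library and a bar at the mean, in males and females on PFOA and then on vehicle. Clec4f and the C1q chains are lower in every male than in every female, with C1qa at 18.1 to 31.7 CPM in males and 37.4 to 68.6 CPM in females, while Lyz2, Cd163 and Folr2 overlap.

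Whether the dimorphism is the same under PFOA as on vehicle was asked by fitting each exposure within a model of 4 groups. On PFOA 76 genes were higher in males (0.546%) and 102 lower (0.733%), and on vehicle 155 were higher (1.11%) and 201 lower (1.45%), totals of 178 (1.28%) and 356 (2.56%). The counts alone do not show a weaker dimorphism, since the groups held 3 males and 2 females on PFOA and 2 males and 3 females on vehicle. The mitochondrial share of counts moved with sex on PFOA, at 9.07% to 12.9% in males and 6.62% and 6.89% in females, and on vehicle it was 9.19% and 11.8% in males and 10.7% to 12.7% in females. All 7 tested mitochondrially encoded protein genes had a positive log2 fold change on PFOA (median 0.58) and a negative one on vehicle (median −0.16). The part of this share in the counts of calls was not tested. Of the 155 higher on vehicle 137 had the same sign on PFOA and 25 passed there, which is 16.1% of the 155 and 32.9% of the 76. Of the 201 lower on vehicle 178 had the same sign and 45 passed, 22.4% of the 201 and 44.1% of the 102. The median log2 fold changes of these genes were 0.52 on PFOA and 1.27 on vehicle for the higher set and −0.56 on PFOA and −1.33 on vehicle for the lower set, where the vehicle values are those that chose them. The PFOA total of 178 became 70 without male PFOA replicate 2, 26 without female PFOA replicate 1 and 23 without female PFOA replicate 2. The vehicle total of 356 became 116 without male vehicle replicate 1, 139 without male vehicle replicate 2, 224 without female vehicle replicate 2, 236 without female PFOA replicate 1 and 230 without female PFOA replicate 2.

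The medians over gene lists that follow describe both exposures and were not tested against each other. Of 25 female-typical P450s 0 were higher and 8 lower in males on PFOA, with a median log2 fold change of −0.62, against 2 higher and 16 lower on vehicle, with a median of −2.88. For the 21 urinary proteins and lipocalins the medians were 2.67 on PFOA, with 6 higher and 0 lower, and 1.96 on vehicle, with 8 higher and 1 lower. Male-typical P450s had medians of 0.89 on PFOA, with 2 of 13 higher, and 1.75 on vehicle, with 8 higher. The list counts turned on single libraries: without female PFOA replicate 1 they were 0, 1 and 0 on PFOA for female-typical P450s, urinary proteins and male-typical P450s, and 0 in all 3 lists without female PFOA replicate 2. Without male PFOA replicate 1, 2 or 3 the female-typical P450s gave 2, 0 and 4 calls on PFOA, and the male-typical P450s gave 1 without male PFOA replicate 2 and 4 without female vehicle replicate 3. On vehicle the 18 female-typical P450 calls became 10 without male vehicle replicate 1 and 11 without male vehicle replicate 2, and the 8 male-typical calls became 5 without male vehicle replicate 1, male vehicle replicate 2 or female vehicle replicate 1. Placing genes that had no count in 1 sex at their lower bound left these medians the same, which says little. It replaced 0 genes in all 3 lists on PFOA and in the male-typical P450s on vehicle. On vehicle it replaced 2 female-typical P450s and 1 urinary protein or lipocalin.

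**Figure D4:**
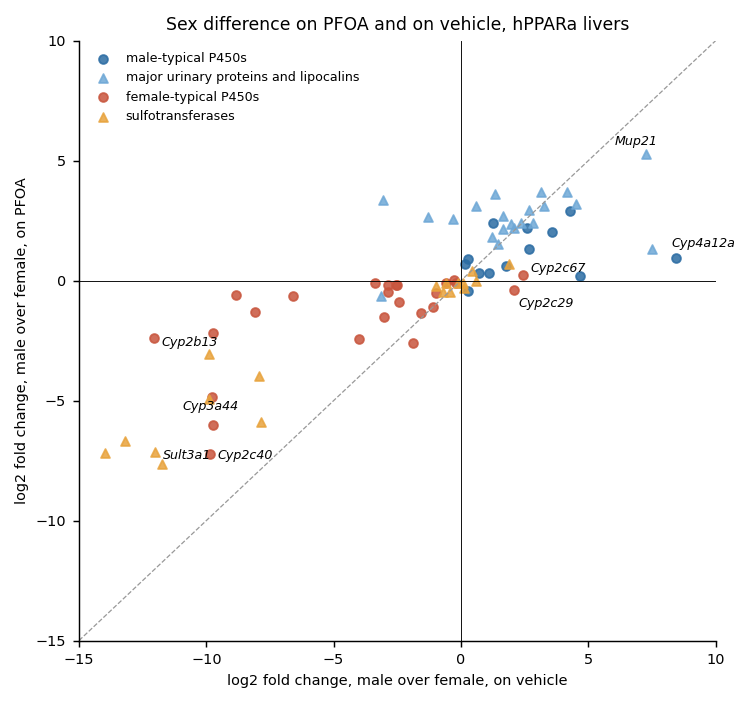
Log2 fold change of males over females on PFOA (vertical) against vehicle (horizontal) for tested P450s, urinary proteins and sulfotransferases of hPPARa livers, with a dashed line where both are equal. Most female-typical P450s lie above the line, nearer to 0 on PFOA, as does Cyp2b13, and fitted values of genes with 3 or fewer counts in a sex depend on the prior count.

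The difference between the exposures was tested directly by the sex by exposure term, which is the male over female log2 difference on PFOA minus that on vehicle. It called 4 genes higher (0.0288%) and 8 lower (0.0575%), 12 in all (0.0863%). For several of them 1 sex was nearly silent on vehicle and not on PFOA. Cyp2b13, a female-typical P450 that xenobiotics induce, had 34.2, 34.9 and 40.7 CPM on PFOA and 0 and 0.0671 CPM on vehicle in males. The females had 237 and 154 CPM on PFOA and 121, 282 and 119 CPM on vehicle. On PFOA the log2 fold change was −2.41 ± 0.39, whereas on vehicle males had 1 count and females 8345, a ratio of 5344 (exact 95% interval 958.9 to 211100, females over males). The term was 9.65 ± 1.12 (adjusted p = 0.0313). Cyp2b9, its close relative, had 141, 180.4 and 181 CPM on PFOA and 1.95 and 0.268 CPM on vehicle in males and 536 and 293 CPM on PFOA and 202, 486 and 226 CPM on vehicle in females, with a term of 6.78 ± 0.96 that did not pass (adjusted p = 0.0898). In both genes the vehicle males were the low libraries. Cyp4a12a, a male-typical fatty acid ω-hydroxylase, had the opposite layout, with 623, 596 and 517 CPM on PFOA and 371 and 337 CPM on vehicle in males and 361 and 249.6 CPM on PFOA and 0.914, 0.0608 and 2.14 CPM on vehicle in females. Here the vehicle females were the low libraries, and the term was −7.52 ± 0.72 (adjusted p = 0.0201).

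Cyp2c29 and Cyp2c67, listed as female-typical, stood higher in males on vehicle. Cyp2c29 had 6931, 7229 and 8308 CPM on PFOA and 1724 and 2608 CPM on vehicle in males. In females it had 10083 and 9911 CPM on PFOA and 541, 529 and 484 CPM on vehicle. On PFOA both females lay above the males without passing (log2 fold change −0.41 ± 0.17, adjusted p = 0.292), and on vehicle both males lay above the females (2.07 ± 0.17, adjusted p = 2.41e-05). Cyp2c67 had 203, 238 and 221 CPM on PFOA and 457 and 596 CPM on vehicle in males and 194 and 180.1 CPM on PFOA and 104, 85.5 and 105 CPM on vehicle in females. On PFOA its log2 fold change was 0.25 ± 0.15 (adjusted p = 0.476), and on vehicle it was higher in males (2.42 ± 0.15, adjusted p = 2.21e-06). Arsa, a lysosomal sulfatase, had 52.7, 29.7 and 44.9 CPM on PFOA and 41.6 and 45.2 CPM on vehicle in males and 44.8 and 33.7 CPM on PFOA and 9.75, 9.06 and 8.64 CPM on vehicle in females. The vehicle females again stood alone at the low end (sex by exposure term −2.12 ± 0.29, adjusted p = 0.0201). C8a had the same layout, with 481, 680.2 and 543 CPM on PFOA and 774 and 875 CPM on vehicle in males and 403 and 381 CPM on PFOA and 207, 233 and 225 CPM on vehicle in females. Evc, a ciliary protein of hedgehog signalling, was lowest in PFOA males, at 2.12, 2.35 and 2.47 CPM, against 9.95 and 11.8 CPM in PFOA females. On vehicle Evc had 8.25 and 8.12 CPM in males and 12.6, 11.5 and 8.92 CPM in females. Except for Cyp2c29 and Cyp2c67, each of the 12 was lost when some single library was left out, and the total of 12 became 3 without female PFOA replicate 1 or 2, 6 without male vehicle replicate 2, 24 without male PFOA replicate 1, 22 without male PFOA replicate 2 and 23 without female vehicle replicate 3.

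**Figure D5:**
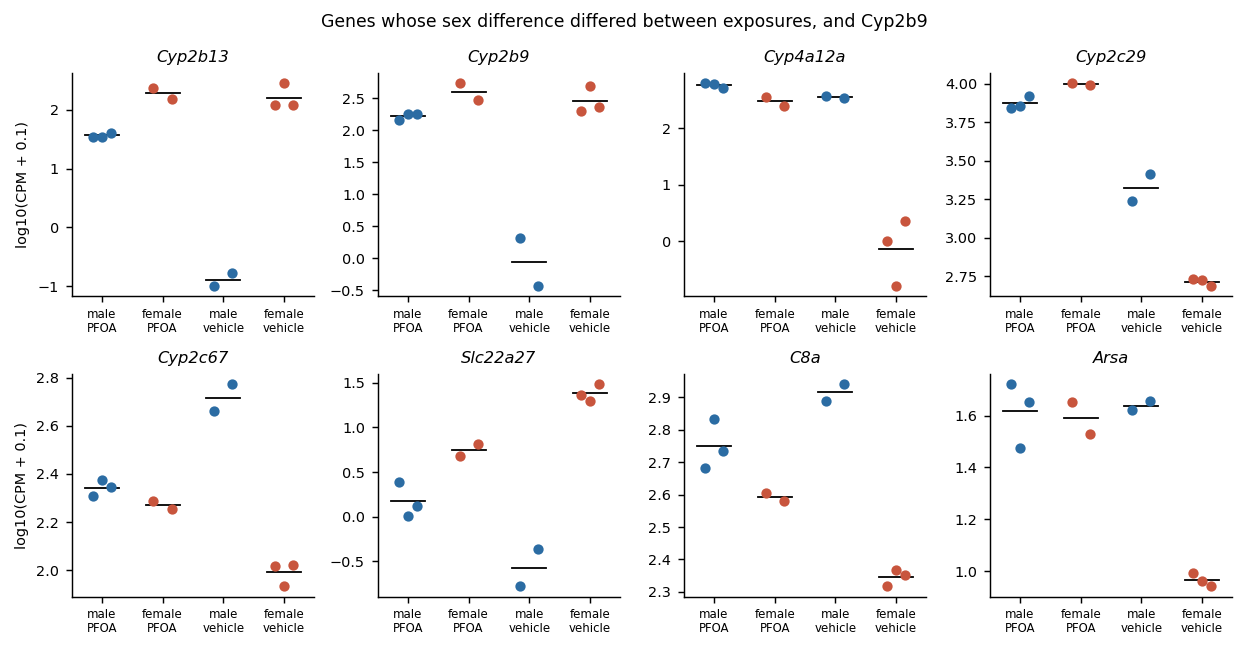
Levels of 8 genes in the 10 hPPARa libraries as log10 of CPM plus 0.1, 1 point per library and a bar at the mean, in males and females on PFOA and then on vehicle. In 7 of the panels the sex by exposure term passed, the exception being Cyp2b9, and the low libraries are vehicle males for Cyp2b13 and Cyp2b9 and vehicle females for Cyp4a12a, Cyp2c29, Cyp2c67, C8a and Arsa.

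Whether the same dimorphism is present without PPARα was asked in the 10 KO libraries. The tests above did not use them, though their Ppara levels were given and CPM were scaled over all 20 libraries. In 3 of them there were transcripts of the other sex (Xist over 10 CPM in a male or Ddx3y over 1 CPM in a female): KO female PFOA replicate 2, KO male PFOA replicate 2 and the lone vehicle female of KO (replicate 1). With all 10 libraries 183 of 14807 autosomal genes were higher in KO males (1.24%) and 320 lower (2.16%). The total of 503 (3.4%) became 87 without those 3 libraries, 123 without KO female vehicle replicate 1 and 324 without KO male vehicle replicate 1. Without the lone vehicle female the KO sexes were compared on PFOA only. Losing the other-sex transcripts and losing the vehicle comparison therefore cannot be told apart in these refits. Of the 211 genes higher in hPPARa males 210 were tested in KO, 201 had the same sign and 68 passed, which is 32.2% of the 211 and 37.2% of the 183. Of the 260 lower in hPPARa males 258 were tested, 244 had the same sign and 76 passed, 29.2% of the 260 and 23.8% of the 320. No gene passed in opposite directions. Without the 3 libraries 183 of 207 tested higher genes and 206 of 245 lower genes kept the same sign, 28 and 23 passed, and 1 passed in the opposite direction.

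Prlr had 43.9 to 61.8 CPM in KO males and 193 to 443 CPM in KO females, with a log2 fold change of −2.67 (adjusted p = 6.21e-05) and of −3.09 without the 3 libraries. Mup21 had 299 to 881 CPM in KO males and 6.46 to 34.6 CPM in KO females (4.51, and 5.27 without them). Cyp2u1 gave 2.03 and 2.32, Eci3 −6.61 and −7.33, and Cux2 −5.53 and −5.03, with adjusted p under the threshold in both fits. Mup20, Cyp2c40 and Cyp3a44 passed in KO with log2 fold changes of 3.49, −6.20 and −6.68. These genes lost the call in the PFOA-only fit without the 3 libraries (adjusted p = 0.133, 0.144 and 0.137). A1bg had 0 CPM in every KO male and 0.659 to 13.0 CPM in KO females. It did not pass with the 3 libraries (adjusted p = 0.21) and passed without them (adjusted p = 0.00566). The macrophage markers gave 0 calls of 13 in KO by edgeR (3 lower at an unadjusted p under 0.05, 1 by DESeq2, 1 without KO female PFOA replicate 2). All 13 had a negative log2 fold change in KO as well, with a median of −0.40. Their summed level of 180.7 to 495.2 CPM in KO males overlapped the 396.2 to 578.4 CPM of KO females.

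The difference in dimorphism between the genotypes, tested in 1 model of the 20 libraries, called 0 of 15262 autosomal genes higher and 0 lower in hPPARa than in KO (0%). At an unadjusted p under 0.05 there were 944, DESeq2 called 9 higher and 6 lower, and leaving out the 3 libraries gave 0 higher and 2 lower. That last fit compared the KO sexes on PFOA only. The count became 1 without KO male PFOA replicate 2, KO female PFOA replicate 2 or KO female PFOA replicate 3. The macrophage result in hPPARa is not shown to differ from KO: for C1qb the difference was −0.76 ± 0.26 and for Adgre1 −0.92 ± 0.29 (adjusted p = 0.625 and 0.554). For Prlr it was 0.97 ± 0.27 and for Mup21 1.81 ± 0.66 (adjusted p = 0.475 and 0.746). The genes with the smallest unadjusted p included Chrna2, a nicotinic receptor subunit. It had 15.03, 18.5 and 19.8 CPM in males and 15.3 and 12.2 CPM in females of hPPARa on PFOA, and 4.26, 3.05 and 4.50 CPM in males and 0.746, 1.21 and 0.337 CPM in females of KO on PFOA. The difference was −2.13 ± 0.41 (unadjusted p = 5.06e-05, adjusted p = 0.267). Alg8 and Rapgefl1 had differences of −0.70 ± 0.13 and 1.62 ± 0.35, and Slc9a3 rested on KO female vehicle replicate 1 (25.3 CPM).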

How the data were processed

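Total RNA from liver (purified with DNA removal and integrity number over 7, per the labels' protocols) was sequenced on a BGI platform. The values are raw counts per gene symbol that the authors deposited in 2 tables of 53599 symbols, 1 per genotype. The submitters' processing notes name the genome build GRCm39 and, with no roles, STAR 2.5.3, featureCounts 1.6.1, cutadapt 1.15, FastQC 0.11.5, edgeR 3.36.0 and R 4.1.0. The sources used here do not name the annotation or strand setting, so overlapping and antisense genes may share reads. No symbol was blank or a total.

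Each comparison used edgeR 4.0.16 (R 4.3.3) with TMM scaling, filterByExpr by group, a robust quasi-likelihood fit and Benjamini-Hochberg adjustment over all genes tested, with autosomal rows reported (51476 symbols matched to a chromosome). The exposures and their difference came from a 4-group model. DESeq2 1.42.0, RLE scaling, no filter, a replicate block, each library left out, no exposure term, equal weight of exposures, a joint fit of both genotypes and a 2-fold minimum were alternatives. The standard error is the log2 fold change divided by the square root of F. Libraries of a group differed beyond sampling noise (chi-square per gene 8.60 to 51.1), so each counted as 1 sample. On data simulated for the comparison over both exposures (14142 genes, 200 changed), 41.8% of 1.5-fold, 92.5% of 2-fold and 100% of 4-fold changes were recovered, with 7 false among 163 calls. Recovery was lower for the sex by exposure term (2.99%, 26.9% and 89.4%) and for hPPARa minus KO (17.9%, 62.7% and 95.5%). On PFOA it was 13.4%, 68.7% and 98.5%, with 12 false among 132 calls. On vehicle it was 23.9%, 71.6% and 97.0%, with 8 false among 136 calls. Changes were planted only in genes with a mean over 1 CPM. The simulated counts held the fitted dispersion without added gene-by-gene spread, and without differences between exposures other than planted ones. The rates therefore do not hold for genes whose libraries spread more widely, such as Sult2a1.

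Named genes were the 12 highest and 12 lowest with an adjusted p under 0.05 and a mean of 1 CPM or more, up to 5 per list by smallest p, 6 by the sex by exposure term, 5 where none passed, and 12 fixed genes of sex and growth hormone signalling. Genes named outside the rule illustrate a list's range or its exceptions and were chosen after their values were seen. Members, lists and rule were chosen with earlier results of these data known. Promoters came from RefSeq on GRCm38.p6.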

Additional observations from a re-analysis of the deposited data

Results flagged for a closer look

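The male over female difference itself differed between PFOA and vehicle for 12 genes, by the sex by exposure term of edgeR's quasi-likelihood test, in which a positive value means a more positive difference on PFOA. Values are log2, with 1 group of 2 and 1 of 3 libraries at each exposure. Among P450s the term was −2.47 for Cyp2c29, −2.18 for Cyp2c67, −7.52 for Cyp4a12a and 9.65 for Cyp2b13. It was 5.02 for Slc22a27, an organic anion transporter with 2.36, 0.929 and 1.204 CPM on PFOA and 0.0650 and 0.335 CPM on vehicle in males and 4.72 and 6.47 CPM on PFOA and 23.2, 19.9 and 30.9 CPM on vehicle in females, so that vehicle males were the low libraries. The term was −1.40 for F2r, the thrombin receptor, with 38.8, 41.7 and 33.8 CPM on PFOA and 37.8 and 45.5 CPM on vehicle in males and 29.0 and 28.7 CPM on PFOA and 10.5, 12.8 and 12.2 CPM on vehicle in females. For Coq8a, a kinase-like protein of coenzyme Q synthesis, it was −1.61, with 245, 266 and 224 CPM on PFOA and 275 and 293 CPM on vehicle in males and 462 and 560.2 CPM on PFOA and 149, 241 and 190.0 CPM on vehicle in females. Arsa, Evc and C8a had terms of −2.12, −1.79 and −1.35. Meg3, an imprinted noncoding RNA, had a term of 2.02, with 13.3, 9.97 and 10.96 CPM on PFOA and 2.92 and 3.22 CPM on vehicle in males and 3.26 and 2.16 CPM on PFOA and 2.80, 3.10 and 2.90 CPM on vehicle in females. Limk1, a kinase of actin turnover, had a term of 2.01, with 12.7, 11.2 and 8.97 CPM on PFOA and 2.08 and 2.48 CPM on vehicle in males and 3.15 and 3.81 CPM on PFOA and 2.99, 3.22 and 2.49 CPM on vehicle in females. In all 12 the adjusted p lay between 0.00086 and 0.0347.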

How the results depend on the processing

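All 6 comparisons changed their number of calls by over 1.5 times under DESeq2 and without a filter on low counts. DESeq2 called 878 genes over both exposures, 402 on PFOA, 594 on vehicle, 131 for the sex by exposure term, 901 in KO and 15 for hPPARa minus KO. Without the filter the counts were 1035, 686, 840, 307, 1280 and 80 in the same order. Over both exposures the count was 138 without the exposure term and 233 with a minimum of 2-fold. Leaving out each library in turn gave 237 to 649 over both exposures, 23 to 246 on PFOA, 116 to 520 on vehicle, 3 to 24 for the sex by exposure term, 123 to 593 in KO and 0 to 1 for hPPARa minus KO. With the 3 KO libraries that held other-sex transcripts left out, KO gave 87 calls and hPPARa minus KO gave 2, the KO sexes then being compared on PFOA only. Groups left with 1 library were assumed to vary like the other groups. The cause of these shifts was not tested.

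Labels share replicate numbers, but same-numbered males and females did not deviate together (correlations of −0.080 and −0.103 on PFOA and 0.080 and −0.075 on vehicle in hPPARa, and −0.14 to 0.026 in KO), so the numbers were not taken as pairs. With a replicate block the counts were 440 over both exposures, 222 on PFOA, 345 on vehicle, 15 for the sex by exposure term and 200 in KO.

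Of 2237 values of single genes over both exposures and their alternatives, 1957 kept their side of the threshold and direction, 228 lost the call, 52 gained it and 0 reversed. Precision is limited by groups of 2 and 3 libraries.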

Other observations

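Some members of the sex-typed lists went against their list's name. Aldh1a1, a retinaldehyde dehydrogenase listed as female-typical, had 1333 to 2725 CPM in males and 389 to 1750.3 CPM in females (log2 fold change 0.94 ± 0.18, adjusted p = 0.0128), and Gpc1, a heparan sulfate proteoglycan, had 2.53 to 9.03 CPM in males and 1.08 to 2.07 CPM in females (1.57 ± 0.31, adjusted p = 0.0155). In the male-typical list, Tat, the tyrosine aminotransferase, had 424 to 965 CPM in males and 1390.4 to 2396 CPM in females (−1.14 ± 0.20, adjusted p = 0.0086), and Gadd45g, a stress-induced growth inhibitor, had 3.22 to 14.2 CPM in males and 7.95 to 58.5 CPM in females (−1.61 ± 0.27, adjusted p = 0.0105).

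Smaller lists gave single calls. Over all autosomal genes tested 1.52% were higher in males and 1.87% lower, so these calls are not read as traits of the lists. Of 26 serpins 1 was higher in males, Serpina1c, a protease inhibitor (0.97 ± 0.23, adjusted p = 0.0461), and 1 was lower, Serpinb8 (−1.28 ± 0.22, adjusted p = 0.00652). Serpina1c has near-identical copies and was lost in 10 of 17 alternatives. Of 11 immediate early genes Jun was higher (0.95 ± 0.21, adjusted p = 0.0312) and Dusp1 lower (−0.62 ± 0.16, adjusted p = 0.0459). They encode a transcription factor subunit and a phosphatase induced by the same stimuli, and their calls were lost in 9 and 9 of 17 alternatives. Igkc, the antibody light chain gene, was lower in males, with 3.47 to 5.63 CPM in males and 5.68 to 8.23 CPM in females (−0.72 ± 0.16, adjusted p = 0.027), a call lost without male vehicle replicate 1 or 2, male PFOA replicate 2, female vehicle replicate 2 or female PFOA replicate 2.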
